A study of Mus musculus with 4 samples.

Results

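The pyruvate dehydrogenase switch was described in 4 sarcomas of W/+ mice through 10 genes of the 56691 in the deposited table. These were the 4 pyruvate dehydrogenase kinases Pdk1, Pdk2, Pdk3 and Pdk4, the 2 pyruvate dehydrogenase phosphatases Pdp1 and Pdp2, the E1 subunits Pdha1 and Pdhb, and the mitochondrial pyruvate carrier subunits Mpc1 and Mpc2. Each symbol matched 1 row of the table, and all 10 genes were among the 17188 that passed the filter on low counts. The genes were picked by name, with the difference between treated and untreated sarcomas already known, so their differences are given as descriptions with standard errors and without a test.

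The W/+ mice carry 1 mutant copy of the p53 gene, written p53R282W/+ in the sample labels after the human residue, made by CRISPR/Cas9 editing on a C57BL/6N background. The study asked whether arsenic trioxide (ATO), a compound that binds and refolds certain p53 mutants, reactivates the mutant protein in tumors that arise spontaneously in these mice. ATO 1 and ATO 2 came from mice that drank water with ATO from young adulthood until death, and Ctl 1 and Ctl 2 came from mice without ATO, labelled PBS. All 4 tumors share the genotype, and their sarcoma type, site, and the age and sex of each mouse are not given in the sources used here. The labels also attach to every sample a cell culture protocol that uses insulin, dexamethasone and isobutylmethylxanthine, and the methods describe no such culture of the sarcomas.

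Total counts ranged from 15259695 to 18134000. A count of 0 allows up to 3 counts, which corresponded to between 0.151 and 0.240 CPM (the count scaled to the TMM-adjusted library size), and this limit covers counting error only. The markers of mesenchyme that a sarcoma should hold were present in every tumor, with Vim at 581 and 812 FPKM (the count scaled to exon length and library size) in the Ctl tumors and at 131 and 272 in the ATO tumors. The 5 mesenchyme markers had a median log2 difference of -0.99. The 2 treated tumors were unlike each other. Transcripts of the mitochondrial genome made up 14.7% of counts in ATO 2, whereas the other tumors held 1.98% to 2.59%. The 8 skeletal muscle markers summed to 15147 FPKM in ATO 1 and 1019 in ATO 2 against 7.62 in Ctl 1 and 129 in Ctl 2, and the 5 adipocyte markers to 229 and 1369 against 12.7 and 66.2. Most of each adipocyte sum was Fabp4, at 155 and 809 FPKM in ATO 1 and ATO 2 against 12.6 and 66.1 in Ctl 1 and Ctl 2. Adipoq, Plin1, Cidec and Lep had at most 0.08 FPKM in the Ctl tumors. With Benjamini-Hochberg adjustment, edgeR's quasi-likelihood test called 0 of 17188 genes (0%) between ATO and Ctl at an adjusted p of 0.05, these 10 genes included, while 1463 had an unadjusted p under 0.05 and DESeq2 called 754. In the text below, higher and lower therefore give the order of the values in these 4 tumors.

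Pyruvate dehydrogenase is the mitochondrial complex that turns pyruvate, the end product of glycolysis, into acetyl-CoA for the citric acid cycle and for lipid synthesis. The kinases phosphorylate the alpha subunit of its E1 component and switch the complex off, the phosphatases remove the phosphate and switch it on, and the carrier made of Mpc1 and Mpc2 brings pyruvate through the inner mitochondrial membrane. The kinases differ in where they are made. Pdk2 is widespread, Pdk4 is known for its rise in muscle, heart and fat during fasting, when fatty acids replace glucose as fuel, and Pdk1 is a known target of the hypoxia factor HIF-1 in tumors.

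The promoters of 3 kinase genes are shown because the kinases diverged in these tumors. Pdk4 and Pdk2 were higher in both ATO sarcomas, and Pdk1 overlapped between the groups. The sequences are from RefSeq on GRCm38, are read 5′ to 3′ along the gene's strand and stop short of the annotated transcripts. They cover chr6:5496310-5496528 on the minus strand for Pdk4, chr11:95041372-95041621 on the minus strand for Pdk2 and chr2:71872974-71873223 on the plus strand for Pdk1. Capitals mark matches to CCAAT or its complement ATTGG and to the E-box CACGTG.
Pdk4: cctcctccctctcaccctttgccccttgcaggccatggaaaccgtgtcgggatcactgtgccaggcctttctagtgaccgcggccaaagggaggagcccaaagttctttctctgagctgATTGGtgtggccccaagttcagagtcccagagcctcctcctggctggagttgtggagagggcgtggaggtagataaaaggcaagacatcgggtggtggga
Pdk2: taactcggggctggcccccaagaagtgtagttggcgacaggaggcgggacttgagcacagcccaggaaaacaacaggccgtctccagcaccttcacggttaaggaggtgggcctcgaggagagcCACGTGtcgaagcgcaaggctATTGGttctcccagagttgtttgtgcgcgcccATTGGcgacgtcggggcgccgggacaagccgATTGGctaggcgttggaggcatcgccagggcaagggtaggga
Pdk1: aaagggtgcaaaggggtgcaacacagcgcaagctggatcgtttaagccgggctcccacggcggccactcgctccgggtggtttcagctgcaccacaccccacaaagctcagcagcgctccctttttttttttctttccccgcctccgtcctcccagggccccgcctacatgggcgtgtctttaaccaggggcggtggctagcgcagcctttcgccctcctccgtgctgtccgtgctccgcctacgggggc

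The 6 motifs searched on both strands were TCAAGGTCA (estrogen-related receptor element), AGGTCA (nuclear receptor core, which lies inside the former), TGTTTAC (forkhead), ACGTG (hypoxia response core), CACGTG (E-box, which holds ACGTG) and CCAAT. A RefSeq promoter window was found for 9 of the 10 genes. The Pdk4 window held 1 CCAAT match, a motif in 33.8% of 32851 windows of the same length. The Pdk2 window shown held 3 CCAAT matches and 1 E-box, the latter in 6.02% of windows, and the Pdk1 window shown held no match to any of the 6. Pdk1 and Pdk2 each had a further window inside a transcript, also without a match. Among the other genes, the Pdp2 window held 1 E-box and 2 CCAAT matches and the Pdhb window 3 CCAAT matches and 1 ACGTG. The Pdk3 window held 1 ACGTG and 1 CCAAT match, the Mpc2 window 1 CCAAT match and the Pdha1 window none. One Mpc1 window held 2 CCAAT matches and a further one 1 AGGTCA. None of the 3 sequences held TGTTTAC or TCAAGGTCA, which occur in 3.17% and 0.387% of windows, and ACGTG and AGGTCA occur in 16.6% and 14.02%. A match is a run of letters, and these data do not measure binding.

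**Figure D1:**
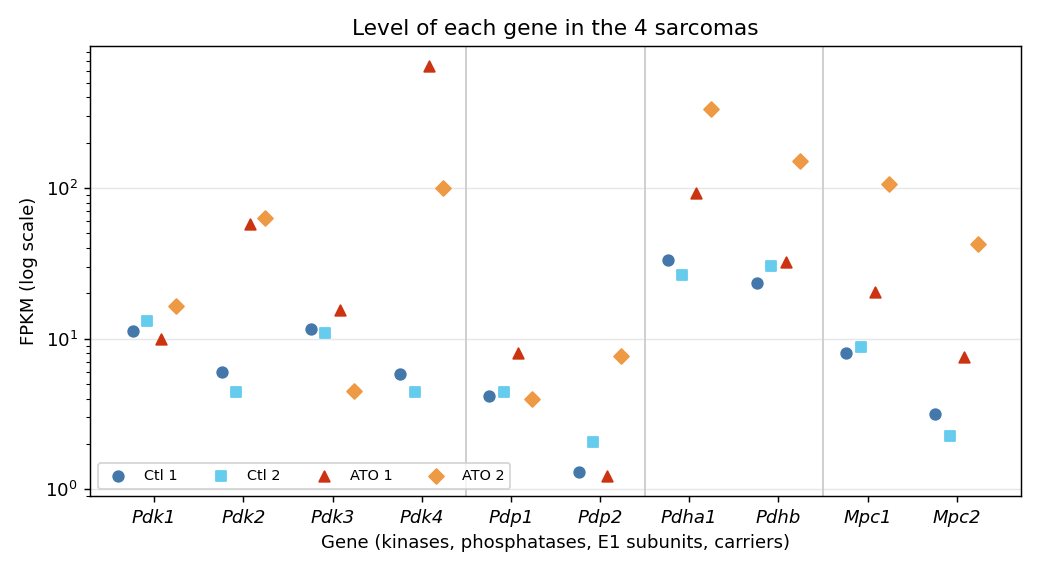
FPKM of the 10 genes in each of the 4 sarcomas, on a log axis, grouped by role with 1 point per tumor. Pdk2 and Pdk4 sat far higher in both ATO sarcomas than in the Ctl sarcomas, Pdk1, Pdk3, Pdp1 and Pdp2 overlapped, and the E1 and carrier genes were highest in ATO 2.

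Pdk4 showed the widest difference of the 10 genes. Its FPKM was 5.79 and 4.44 in Ctl 1 and Ctl 2 against 642 and 99.6 in ATO 1 and ATO 2, from raw counts of 355, 280, 40848 and 5337. Both ATO sarcomas lay far above both Ctl sarcomas, and ATO 1 stood 6.44-fold above ATO 2. Among all genes Pdk4 ranked 41st by FPKM in ATO 1 and 403rd in ATO 2, against 7459th and 8777th in Ctl 1 and Ctl 2. On the CPM scale the level was 16.3 ± 3.22 in Ctl and 1331 ± 1280 in ATO (mean ± SD, n = 2 each). The fitted log2 fold change was 6.35 ± 1.15 (SE), 152nd from the highest of 17188, and it was 4.69 without ATO 1. Pdk4 (ENSMUSG00000019577) lies at chr6:5483351-5496309 on the minus strand of GRCm38.

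Pdk2, the broadly expressed kinase, gave the narrowest spread within the treated pair. Its FPKM was 6.01 and 4.45 in Ctl 1 and Ctl 2 against 57.5 and 62.8 in ATO 1 and ATO 2. By FPKM the ATO sarcomas were thus alike, and both stood well above both Ctl sarcomas. After TMM scaling they were at 181 and 242 CPM. The fitted log2 fold change was 3.81 ± 0.46 (SE), a 14.03-fold difference, and it stayed between 3.59 and 4.05 when any 1 sarcoma was left out. Pdk2 (ENSMUSG00000038967) lies at chr11:95026258-95041354 on the minus strand, and the antisense gene Gm11513, which overlaps it, had a count of 0 in all 4 tumors.

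Pdk1 and Pdk3 did not separate the groups. Pdk1 FPKM was 11.3 and 13.1 in Ctl 1 and Ctl 2 against 9.97 and 16.6 in ATO 1 and ATO 2, so the ATO values lay on either side of the Ctl values. Its fitted log2 fold change of 0.44 ± 0.49 (SE) became -0.16 without ATO 2. Pdk3 FPKM was 11.5 and 11.0 in Ctl 1 and Ctl 2 against 15.4 and 4.5 in ATO 1 and ATO 2. The Ctl sarcomas agreed closely, and the ATO sarcomas again fell on either side, with a fitted log2 fold change of 0.03 ± 0.61 (SE) that became -0.91 without ATO 1 and -0.17 without TMM scaling. Hif1a, the oxygen-regulated subunit of HIF-1, had 71.1, 70.6, 12.5 and 53.2 FPKM in Ctl 1, Ctl 2, ATO 1 and ATO 2. By CPM Hif1a was at 384, 376, 72.9 and 382, so the groups overlapped and only ATO 1 was low. Pdk1 (ENSMUSG00000006494) lies at chr2:71873224-71903858 on the plus strand and Pdk3 (ENSMUSG00000035232) at chrX:93764607-93832201 on the minus strand. The kinases are paralogs, and how reads shared between copies were counted is not given in the sources used here.

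The order of the kinases by FPKM differed between the groups. In Ctl, Pdk1 (12.2 ± 1.28) and Pdk3 (11.2 ± 0.396) led and did not differ beyond their spread, and Pdk2 (5.23 ± 1.10) and Pdk4 (5.12 ± 0.955) followed and did not differ either (mean ± SD, n = 2). In ATO, Pdk4 came first in both tumors and Pdk2 second, at 371 ± 383 and 60.2 ± 3.79, while Pdk1 (13.3 ± 4.65) and Pdk3 (9.96 ± 7.72) overlapped. Pdk4 made up 16.7% and 13.5% of the summed kinase FPKM in Ctl 1 and Ctl 2, and 88.6% and 54.3% in ATO 1 and ATO 2. Pdk3 made up 33.3% and 33.2% in Ctl and 2.13% and 2.45% in ATO, although its own level overlapped between the groups. Pdk2 took 34.2% in ATO 2 and 7.93% in ATO 1, on either side of its 17.4% and 13.5% in Ctl. The 4 kinases summed to 34.6 and 32.9 FPKM in Ctl 1 and Ctl 2 and to 724 and 184 in ATO 1 and ATO 2. Without Pdk4 the sums were 28.8 and 28.5 against 82.9 and 83.9, so the remaining kinases came to nearly the same total in both treated tumors.

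**Figure D2:**
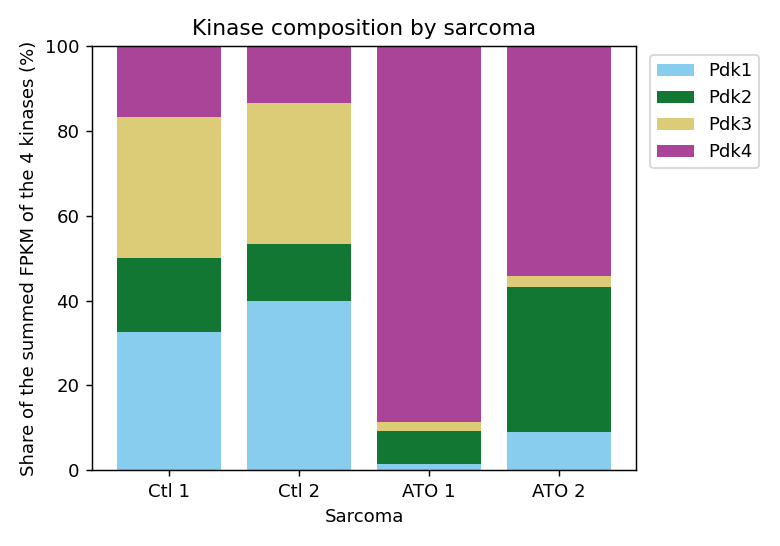
Share of the summed FPKM of the 4 kinases (percent) held by each kinase, 1 stacked bar per sarcoma. Pdk1 and Pdk3 held most of the sum in the Ctl sarcomas, and Pdk4 held 88.6% in ATO 1 and 54.3% in ATO 2.

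The phosphatases were low in all 4 tumors. Pdp1, the calcium-responsive phosphatase, had 4.19 and 4.41 FPKM in Ctl 1 and Ctl 2 against 8 and 3.95 in ATO 1 and ATO 2. ATO 1 was high and ATO 2 fell just below the Ctl sarcomas by FPKM, while after TMM scaling both ATO values (35.8 and 21.7 CPM) exceeded both Ctl values (17.3 and 17.9 CPM). The fitted log2 fold change was 0.71 ± 0.46 (SE), and 0.29 without ATO 1. Pdp2, the phosphatase known for its response to insulin in fat, had 1.30 and 2.05 FPKM in Ctl 1 and Ctl 2 against 1.23 and 7.64 in ATO 1 and ATO 2. Only ATO 2 was high, and the fitted log2 fold change of 1.79 ± 1.03 (SE) became -0.31 without it. Pdp1 accounted for 76.3%, 68.3%, 86.7% and 34.1% of the summed phosphatase FPKM in Ctl 1, Ctl 2, ATO 1 and ATO 2, so Pdp2 was the more abundant of the pair only in ATO 2. Pdp1 (ENSMUSG00000049225) lies at chr4:11958184-11966452 on the minus strand and Pdp2 (ENSMUSG00000048371) at chr8:104591451-104599026 on the plus strand.

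The kinases outnumbered the phosphatases in every tumor. The ratio of summed kinase to summed phosphatase FPKM was 6.30 and 5.10 in Ctl 1 and Ctl 2 against 78.5 and 15.8 in ATO 1 and ATO 2. Both ATO ratios were above both Ctl ratios, and the ATO mean of 47.2 had an SD of 44.3 (n = 2). With Pdk4 left out of the sum the ratios were 5.25, 4.41, 8.98 and 7.24, in the same order of groups and much closer. These are transcript ratios, and neither enzyme activity nor phosphorylation of the complex was measured.

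The 2 subunits of E1, the component that decarboxylates pyruvate and carries the phosphorylation sites, were highest in ATO 2. Pdha1, the X-linked alpha subunit on which the kinases act, had 33.3 and 26.4 FPKM in Ctl 1 and Ctl 2 against 92.4 and 337 in ATO 1 and ATO 2. Both ATO values were above both Ctl values. The fitted log2 fold change was 3.21 ± 0.91 (SE) and was 1.76 without ATO 2. Pdhb, the beta subunit, had 23.3 and 30.2 FPKM in Ctl 1 and Ctl 2 against 32.5 and 150 in ATO 1 and ATO 2. ATO 1 was barely above Ctl 2, and the fitted log2 fold change of 2.15 ± 0.93 (SE) shrank to 0.42 without ATO 2. Although E1 holds its alpha and beta chains in equal number, the ratio of Pdha1 to Pdhb FPKM was 1.43 and 0.875 in Ctl 1 and Ctl 2 and 2.84 and 2.24 in ATO 1 and ATO 2. Pdha1 (ENSMUSG00000031299) lies at chrX:160122209-160138413 on the minus strand and shares 1143 bases with Map3k15 on the opposite strand, which had between 44 and 164 counts. Pdhb (ENSMUSG00000021748) lies at chr14:8165996-8173025 on the minus strand.

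Set against its substrate, Pdk4 separated the treated tumors from each other. The ratio of Pdk4 to Pdha1 FPKM was 0.174 and 0.168 in Ctl 1 and Ctl 2 against 6.94 and 0.296 in ATO 1 and ATO 2. Both ATO ratios were above both Ctl ratios, ATO 1 far above and ATO 2 nearer to the Ctl pair than to ATO 1. The ratio of all 4 kinases to Pdha1 was 1.04, 1.25, 7.84 and 0.544, with the ATO sarcomas on either side of Ctl. The ratio of the phosphatases to Pdha1 was 0.165, 0.244, 0.0998 and 0.0344, lower in both ATO sarcomas.

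**Figure D3:**
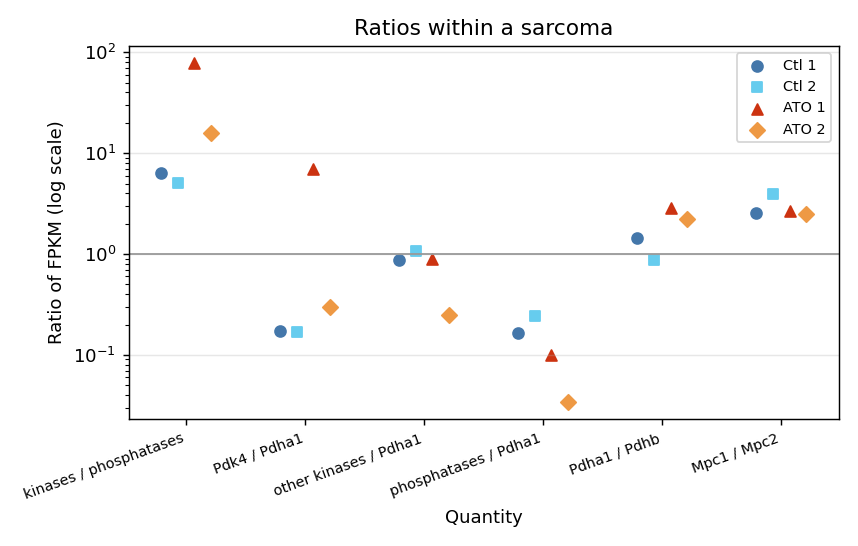
Ratios of FPKM within each sarcoma on a log axis, 1 point per tumor, with a line at 1. Kinases over phosphatases were higher and phosphatases over Pdha1 lower in both ATO sarcomas, and Pdk4 over Pdha1 was 6.94 in ATO 1 and 0.296 in ATO 2.

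The pyruvate carrier genes followed the E1 subunits. Mpc1 had 8.03 and 8.87 FPKM in Ctl 1 and Ctl 2 against 20.3 and 106 in ATO 1 and ATO 2, and Mpc2 had 3.17, 2.26, 7.61 and 42.2. For both genes the Ctl sarcomas were close, ATO 1 was above them and ATO 2 was the highest. The fitted log2 fold changes were 3.28 ± 0.97 for Mpc1 and 3.58 ± 1.04 for Mpc2 (SE), and 1.40 and 1.62 without ATO 2. The 2 proteins work as a heterodimer, and the ratio of Mpc1 to Mpc2 FPKM was 2.53, 3.92, 2.67 and 2.50 in Ctl 1, Ctl 2, ATO 1 and ATO 2, so the treated tumors lay within or just below the range of the Ctl pair. The Mpc1 value is uncertain, since the pseudogene Mpc1-ps had 129, 124, 426 and 2071 counts and may share reads with it. Mpc1 (ENSMUSG00000023861) lies at chr17:8282904-8297661 on the plus strand and overlaps 4930506C21Rik on the opposite strand over 4296 bases, with between 21 and 53 counts. Mpc2 (ENSMUSG00000026568) lies at chr1:165460637-165481214 on the plus strand and overlaps Gm37860, which had at most 2 counts.

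Within the treated pair, some of the 10 genes were higher in ATO 1 and others in ATO 2, by unlike amounts. On the CPM scale Pdk4, Pdk3 and Pdp1 were 5.25-, 2.79- and 1.65-fold higher in ATO 1 than in ATO 2. Pdp2, Mpc2, Mpc1, Pdhb and Pdha1 stood in ATO 1 at 0.131, 0.147, 0.157, 0.176 and 0.223 of their level in ATO 2, Pdk1 at 0.491 and Pdk2 at 0.745. The median fitted log2 fold change of the 10 genes was 2.68, beside -0.016 over all genes tested, and it was 1.21 without ATO 2 and 3.40 without ATO 1. All 10 had a higher fitted level in ATO, as had 49.2% of all genes tested. Both ATO sarcomas exceeded both Ctl sarcomas by CPM for 7 of the 10 genes and 19.7% of all genes, and by FPKM for 6 and 12.8%. Both lay below for 0 of the 10 and 20.2% of all genes. An unadjusted edgeR p under 0.05 with a higher level in ATO was reached by Pdk2, Pdk4, Pdha1, Mpc1 and Mpc2 and by 5.44% of all genes, and DESeq2 called the same 5 genes and 3.26% of all genes higher. Nothing is read from these counts, because the genes were chosen with this contrast known. With 2 sarcomas a group an exact permutation test cannot go below 0.333.

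**Figure D4:**
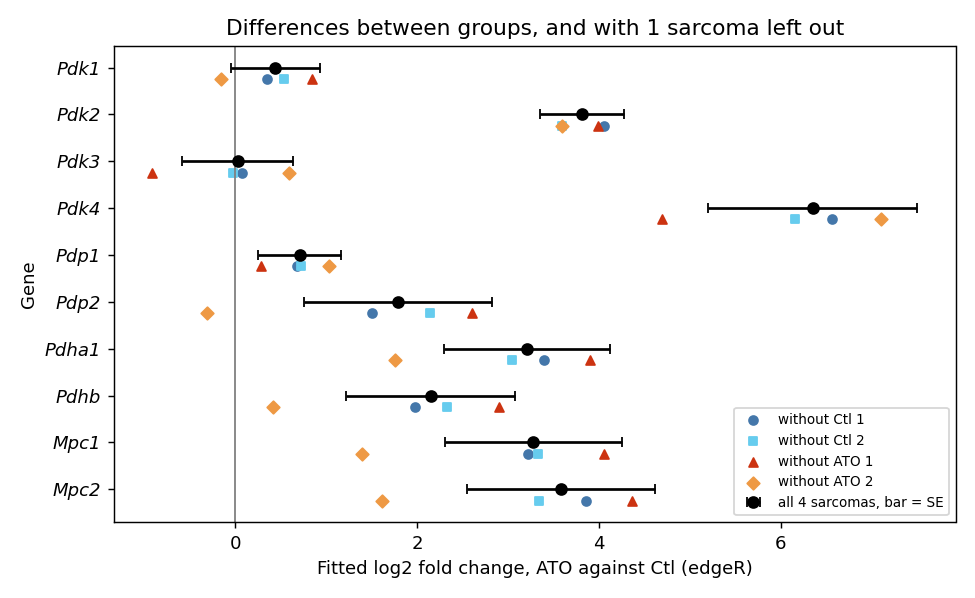
Fitted log2 fold change of ATO against Ctl from edgeR for the 10 genes, as black points with bars of 1 SE, and the same value with 1 sarcoma left out as coloured points. Pdk2 moved least, Pdk4 was lowest without ATO 1, and Pdp2, Pdha1, Pdhb, Mpc1 and Mpc2 were lowest without ATO 2.

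The wider pathway was read from 6 lists with 49 genes, of which 48 were tested. They too were drawn up with results of these data known. edgeR called 0 of the 48, 16 had an unadjusted p under 0.05, all with a higher level in ATO (5.44% of all genes), and DESeq2 called 9, all higher (3.26% of all genes). By CPM 34 of the 48 were higher in both ATO sarcomas (19.7% of all genes) and 1, Ppard, was lower in both (20.2%). The log2 fold changes of the 48 genes had a median of 1.94. The median FPKM of these genes was 11.3 and 10.1 in Ctl 1 and Ctl 2, 14.4 in ATO 1 and 42.1 in ATO 2.

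The other subunits of the complex had lower fitted log2 fold changes than Pdha1 (3.21 ± 0.91, SE), but not all had lower ones than Pdhb (2.15 ± 0.93, SE). All 4 tested genes had both ATO values above both Ctl values, as had 19.7% of all genes by CPM and 12.8% by FPKM. Their median log2 fold change was 1.97. Dlat, the E2 acetyltransferase to which the kinases bind, was the highest of the list at 2.88 ± 1.10 (SE), from 10.6, 10.1, 14.04 and 102 FPKM in Ctl 1, Ctl 2, ATO 1 and ATO 2. Pdpr, the regulatory subunit of the phosphatase, was the lowest at 1.55 ± 0.53 (SE), from 3.27, 3.51, 12.4 and 4.69 FPKM. Dlat was thus high only in ATO 2 and Pdpr mainly in ATO 1. The ratio of Pdha1 to the mean of Dlat, Dld and Pdhx was 2.05 and 1.898 in Ctl 1 and Ctl 2 and 4.89 and 3.58 in ATO 1 and ATO 2.

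Lipoylation, which attaches the lipoyl arm that E2 needs, differed less, its 6 genes having 0.90 as their median log2 fold change. It ran from Lias, the lipoyl synthase, at 0.37 ± 0.42 (SE) to Bola3, an iron-sulfur cluster factor, at 2.57 ± 0.68 (SE). Bola3 FPKM was 2.71 and 3.36 in Ctl 1 and Ctl 2 against 8.05 and 20.3 in ATO 1 and ATO 2.

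Pyruvate and lactate handling comprised 8 genes with 1.67 as their median log2 fold change. Of these, 3 were higher in both treated tumors by CPM and by FPKM, as were 19.7% and 12.8% of all genes. Pcx, the carboxylase that feeds pyruvate into oxaloacetate, was the highest at 3.98 ± 1.47 (SE), and its FPKM was 7.34, 1.09, 13.3 and 88.9 in Ctl 1, Ctl 2, ATO 1 and ATO 2. Slc16a3, the lactate exporter MCT4, was the lowest at -0.85 ± 0.63 (SE), from 17.0, 49.7, 14.4 and 15.8 FPKM, and stood at 0.10 without Ctl 2. The lactate dehydrogenase genes differed from each other. Ldha overlapped between the groups, at 135, 281, 166 and 309 FPKM, and Ldhb was at 13.0, 10.6 and 11.5 in Ctl 1, Ctl 2 and ATO 1 and at 184 in ATO 2.

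The related alpha-keto acid dehydrogenases, which include a branched-chain complex with a kinase and phosphatase of its own, comprised 7 genes whose log2 fold changes had a median of 2.54. Bckdhb, the beta subunit of the branched-chain E1, was the highest at 2.87 ± 0.87 (SE), from 4.95, 4.32, 10.6 and 42.1 FPKM. Bckdk, the kinase that switches that complex off, was the lowest at 0.93 ± 0.43 (SE), from 11.6, 12.8, 15.6 and 22.0 FPKM. Both ATO values of Bckdk were above both Ctl values, and the 4 tumors lay close together. The citric acid cycle had the same median, 2.54 over 14 genes, of which 11 by CPM and 9 by FPKM were higher in both ATO sarcomas, as were 19.7% and 12.8% of all genes. It ran from Suclg2 at 0.84 ± 0.66 (SE) to Idh3a, a subunit of the isocitrate dehydrogenase that yields NADH, at 3.32 ± 1.10 (SE). The median FPKM of the cycle was 32.02 and 27.8 in Ctl 1 and Ctl 2, 36.1 in ATO 1 and 178 in ATO 2, so the level in ATO 1 was little above that of Ctl 1.

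The regulators known for the kinase genes, which include the PPAR receptors, their coactivator Ppargc1a, Esrra, FOXO factors and the glucocorticoid receptor Nr3c1, comprised 9 genes whose log2 fold changes had a median of 1.43. Ppargc1a, which promotes mitochondrial biogenesis and is known to induce Pdk4, was the highest at 3.35 ± 0.68 (SE). Its FPKM was 0.42 and 0.19 in Ctl 1 and Ctl 2 against 3.21 and 2.06 in ATO 1 and ATO 2, low in all but separated between the groups. Ppard, the receptor that responds to fatty acids in muscle, was the lowest at -0.76 ± 0.42 (SE), from 11.0, 9.77, 4.24 and 5.70 FPKM. Foxo1, a forkhead factor active in fasting, had 3.05, 4.6, 13.1 and 4.69 FPKM, well above the others in ATO 1 and just above Ctl 2 in ATO 2. Pparg, the receptor of fat cell differentiation, had 0.85, 6.43, 8.12 and 32.3 FPKM and was highest in ATO 2.

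**Figure D5:**
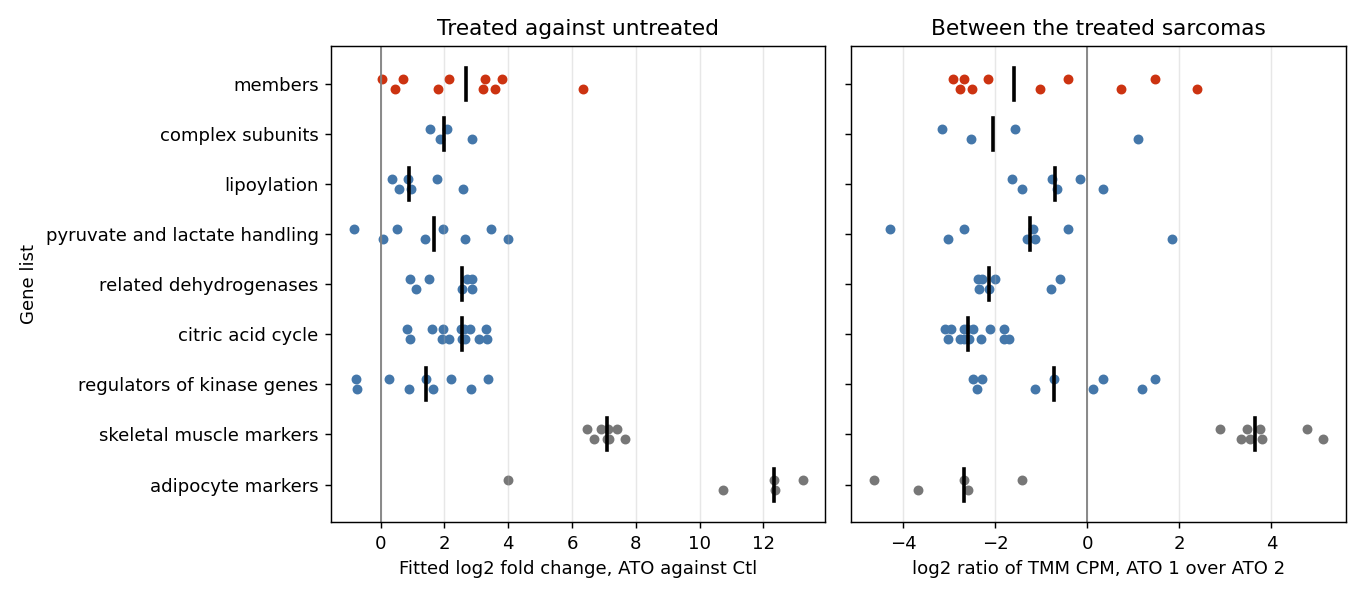
Left, fitted log2 fold change of ATO against Ctl for each gene of the lists. Right, log2 ratio of TMM-scaled CPM of ATO 1 over ATO 2 for the same genes, so that points left of 0 were higher in ATO 2. Bars mark list medians. On the right, the skeletal muscle markers lay above 0, and the adipocyte markers and the citric acid cycle genes below 0.

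Markers of muscle and fat differed between the groups, as did Pdk2 and Pdk4 among the kinases. All 8 skeletal muscle markers were higher in both treated tumors by CPM and by FPKM, as were 19.7% and 12.8% of all genes. Their median log2 fold change was 7.10, and none was at 0 in a Ctl sarcoma. Their median FPKM was 0.675 and 10.6 in Ctl 1 and Ctl 2 against 1273 and 91.2 in ATO 1 and ATO 2, the order of ATO 1 over ATO 2 that Pdk4 showed. Acta1, the skeletal actin, had 0.78, 46.5, 3898 and 428 FPKM. Ctl 2 held more of these markers than Ctl 1, while its Pdk4 level was 4.44 FPKM against 5.79 in Ctl 1. All 5 adipocyte markers were higher in both ATO sarcomas, beside the same 19.7% and 12.8% of all genes. Their median FPKM was 0.03, 0.03, 23.5 and 191, the order of ATO 2 over ATO 1 that the E1 and carrier genes showed. The defining marker Adipoq had 0.08, 0.08, 38.9 and 191 FPKM, and Plin1 was at 0.00, 0.01, 5.28 and 108. Of the cardiac markers, Myh6, Nppa and Myl7 had at most 0.19 FPKM in any tumor, whereas Tnni3 had 1.53, 1.78, 0.99 and 2.19 and Tnnt2 had 0.10, 1.23, 3.84 and 0.34 FPKM. Osteoblast markers had a median of 58.5 FPKM in ATO 1 and at most 0.93 in the others, and endothelial markers a median of 119 in Ctl 2 and at most 15.99 in the others. Proliferation markers had a median of 1.63 FPKM in ATO 2 and between 9.19 and 16.3 in the others. Mki67 was highest in ATO 1, at 16.3, 11.9, 45.4 and 1.96 FPKM in Ctl 1, Ctl 2, ATO 1 and ATO 2. Top2a, Ccnb1, Cdk1 and Mcm2 were highest in Ctl 1. Leukocyte markers had a median between 4.12 and 13.1 FPKM. The macrophage genes among them were highest in ATO 2. Lyz2 was at 1497, 698, 594 and 5115 FPKM and Adgre1 at 32.1, 13.1, 17.2 and 53.9. The summed leukocyte markers (1534, 737, 620 and 5183 FPKM) were mostly Lyz2. Like the E1 and carrier genes, this sum had its highest value in ATO 2. The remaining leukocyte markers Ptprc, Cd3e and Cd79a were highest by FPKM in Ctl 2, as was the list median. Cd79a was close, at 3.97 FPKM in Ctl 2 and 3.78 in ATO 2, and by CPM it was highest in ATO 2. Of the mesenchyme markers, Pdgfrb (98.6 and 70.8 against 36.2 and 23.7 FPKM) and Vim were lower in both treated tumors. Fn1 was lower in both by FPKM but overlapped by CPM. Col1a1 (2276, 273, 2413 and 315 FPKM) and Col1a2 (732, 122, 1322 and 178 FPKM) overlapped, with fitted log2 fold changes of 0.25 and 0.97. The part of muscle, fat, macrophages, mesenchyme and the mitochondrial share in the kinase, E1 and carrier levels was not tested. In bulk tissue more cells of a type and more RNA per cell cannot be told apart, and with these 4 tumors neither can be told apart from treatment.

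The genes whose profile over the 4 sarcomas was most like that of Pdk4 were sought by Euclidean distance of centred log2(CPM + 1) over all 17188 tested genes. They were Mylk4 (distance 0.750), Gm42047 (0.759), Plin4 (1.14), Fbxo40 (1.14) and Ppp1r3c (1.31), against a range of 7.21 on the log2 scale for Pdk4 itself. Only 2 genes lay within a distance of 1. Plin4, a lipid droplet protein, had 0.40, 0.56, 100 and 28.2 FPKM in Ctl 1, Ctl 2, ATO 1 and ATO 2. Fbxo40, a muscle ubiquitin ligase subunit, had 0.02, 0.13, 23.4 and 2.16, and Ppp1r3c, a glycogen-targeting phosphatase subunit, had 0.74, 1.80, 122 and 46.6. For Pdk1, whose profile spanned 1.02 on the log2 scale, the nearest were Idnk (0.037), Crybg1 (0.049), Pigbos1 (0.057), Rnpep (0.066) and Plekhb2 (0.072), with 5464 genes within a distance of 1. A fixed distance favours flat profiles, so these numbers do not compare how common the profiles were, and over 4 tumors such likeness is a description.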

How the data were processed

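RNA-seq was performed on 4 sarcomas, grouped by the treatment in their labels. According to the methods and the submitters' processing notes, reads were checked with FastQC 0.10.1, trimmed with cutadapt 1.9.1, aligned to GRCm38 with HISAT2 2.0.1 and counted per gene with HTSeq. The authors deposited raw counts, not normalized, and FPKM, the count scaled to exon length and total count. Strand setting and treatment of reads with several alignments are not given in the sources used here. Labels and methods name different RNA and library kits. The deposited gene positions matched GENCODE M21 of GRCm38 for 1472 of 52073 shared genes, so positions were taken from M21 by identifier. The number of per-sample columns left unused was 0, and 2639 genes had no symbol.

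Counts were fitted in R 4.3.3 with edgeR 4.0.16 (filterByExpr, TMM factors between 0.821 and 1.11, quasi-likelihood F-test, Benjamini-Hochberg adjustment over 17188 genes, threshold 0.05), after the script had been tested on simulated data. The SE of a log2 fold change was the fitted coefficient, on the log2 scale, divided by the square root of its F statistic. The genes tested held at least 99.49% of each tumor's counts. The biological coefficient of variation was 62.5%, and the smallest adjusted p in edgeR was 0.570. Nothing states that replicate numbers pair tumors, so the fit had no block. P-values measure only the spread between these tumors. Alternatives were DESeq2 1.42.0, its size factors, no TMM factors, all genes with a count, genes of mean FPKM 1 or more, no mitochondrial genes, robust estimation, a replicate block, limma 3.58.1 on log2(FPKM + 1) and log2(FPKM + 0.1), and each sarcoma left out. Profiles used pandas 2.3.3 and numpy 2.4.6, and figures matplotlib 3.10.9, under Python 3.11.15.

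The genes and lists were chosen with earlier results of these data known. Named were the 10 genes, the tested gene with the highest and the lowest log2 fold change in each pathway list, the 5 genes nearest to Pdk4 and to Pdk1, and markers whose values touch a member. Hif1a, Ldha, Ldhb, Foxo1 and Pparg were named after their values were seen, and the promoter motifs were chosen after the files were read. Promoters are from RefSeq on GRCm38.p6 and were searched over the 250 bases before the start. Bases covered by a transcript are not printed. Pdp1 had no promoter entry. A further pathway list is not reported here.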

Additional observations from a re-analysis of the deposited data

How the results depend on the processing

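The number of genes called was 0 in every alternative of the edgeR and limma fits except the fit without a filter on low counts. That fit called 541 of 30859 genes, and DESeq2 called 754 of 18277. The former included 5 of the 10 genes and 5 from the pathway lists, and DESeq2 included 5 and 9. The replicate block also called 0, with 1165 unadjusted p under 0.05 against 1463 without it. Over genes, the deviations of same-numbered sarcomas correlated at 9.081e-05, and a value from so few tumors cannot show whether the numbers pair them. Under the replicate block the log2 fold change of Pdk3 was -0.15. Pdk3 was also -0.17 without TMM factors, -0.36 in limma on log2(FPKM + 1) and -0.42 on log2(FPKM + 0.1), against 0.03. Of 140 fold changes of the 10 genes over 14 alternatives, 124 kept their direction and moved by less than the SE of the main fit. A further 8 kept their direction and moved by more, and 8 changed sign. The number of the 10 genes with a higher fitted level in ATO was between 8 and 10, and the number with both ATO sarcomas above both Ctl sarcomas between 6 and 9. By counts in place of FPKM, Pdk4 made up 11.4% of the kinases in Ctl, against 15.1%.

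With 1 sarcoma left out, the remaining one of that group is assumed to vary like the other group. The log2 fold change then ranged from -0.16 to 0.85 for Pdk1, from -0.91 to 0.59 for Pdk3, from -0.31 to 2.60 for Pdp2, from -1.42 to 0.10 for Slc16a3 and from -0.24 to 1.44 for Suclg2. The number of the 10 genes below both Ctl sarcomas ranged from 0 to 1, the 1 being Pdk3 without ATO 1 and Pdk1 without ATO 2. The median log2 fold change ranged from -0.29 to 1.32 for leukocyte, from -2.71 to 0.64 for endothelial and from -1.05 to 6.94 for osteoblast markers. The causes of these changes were not tested. Depth did not limit the 10 genes, whose lowest count was 127, and the number of sarcomas did limit the spread that could be measured.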
